A study of Sus scrofa with 92 samples.

Results

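In the livers of injured pigs, OTC, the second enzyme of the urea cycle, was below Baseline at 2 hours of full resuscitation and lay 2.84-fold and 2.96-fold lower at 8 and 20 hours in fasted animals. These values include 2 libraries, at 2 and 8 hours, that listed OTC at 0. Without them the changes at 2, 8 and 20 hours were smaller in size and still passed the test. With each animal left out in turn, the 8-hour log2 change ran from -1.68 to -1.29. With the 2 libraries included, the 2-hour change no longer passed the test without any of 10 of the 18 animals. ARG1, the last enzyme of the cycle, moved the other way at 2 hours, when it rose 2.31-fold, and then fell 3.5-fold between 2 and 8 hours. At 20 hours 7 of the 8 genes described here passed the test lower in these animals, against 16.4% of all genes, ARG1 with an adjusted p of 0.0495 that was lost without any of 13 of the 18 animals. The 8 genes were set by name, with earlier results of these data known: CPS1, OTC, ASS1, ASL and ARG1, which encode the enzymes of the urea cycle, and GLS2, TDO2 and HPD, which break down glutamine, tryptophan and tyrosine. Each name was matched to 1 pig Ensembl identifier in the gene name table, a second identifier named ARG1 in the tables of the study is described apart, and all 8 were among the 13667 genes tested, out of 18356 identifiers with a count in the series.

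The urea cycle runs in hepatocytes and turns the ammonia freed by amino acid breakdown into urea, which the kidney excretes. CPS1 and OTC work inside the mitochondrion, where CPS1 joins ammonia and bicarbonate into carbamoyl phosphate and OTC transfers it to ornithine. ASS1, ASL and ARG1 complete the cycle in the cytosol, ending with the release of urea and the return of ornithine. In liver the cycle is strongest in the hepatocytes around the portal tract, and its genes respond to protein intake, glucagon and glucocorticoids.

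Liver biopsies were taken from 23 juvenile male Yorkshire-Landrace pigs, all fasted overnight. The Fasted group (FS) held 18 animals, and the Carbohydrate Prefed group (CPF) held 5 that were given a bolus of Karo Syrup, a mixture of sugars, before anesthesia. All animals were splenectomized and received a blunt chest injury, a liver crush injury and a controlled hemorrhage, followed by limited and then full resuscitation with fluid, shed blood and ventilation. Biopsies of the liver edge were sequenced at Baseline (B), after instrumentation, and at 2, 8 and 20 hours of full resuscitation (FR2, FR8 and FR20). No uninjured animals were among the samples, so shock and injury cannot be told apart from surgery, anesthesia, repeated biopsy and time. In all 5 animals were labelled as having died, 3 FS and 2 CPF.

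Of 92 libraries, 88 entered the main tests. The 3 FS Baseline libraries of animals 17, 19 and 21 held 0.197 to 52.7 CPM of albumin (CPM, counts scaled to a common library total), against 13202 to 168246 CPM in the 88, and 44612 to 49899 CPM of striated muscle markers, so they went against their liver label. The FR8 library of CPF animal 3 held 4388 counts. The 88 held 6877117 to 16613261 counts each. Within the 88, the FR2 and FR8 libraries of FS animal 11 listed at 0 the same 787 genes that had a median of at least 5 CPM over the libraries, OTC and the hepatocyte genes HPX and APOA1 among them, and the set without them is called the 86 libraries. A further 12 libraries, from FS animals 10, 17, 19 and 21 and CPF animal 13, had a profile over 8765 genes, the urea cycle and amino acid genes left out, that followed another timepoint better than their own label by at least 0.5 in Pearson r. The set without these as well is called the 74 libraries. It was formed from expression profiles of the same samples, so its p-values are not independent support for the changes over time.

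Levels are given as CPM scaled by the trimmed mean of M values (TMM). Changes are log2 fold changes with their standard error (SE) from the edgeR quasi-likelihood test, with a term for each animal and Benjamini-Hochberg adjustment over all 13667 genes. A gene "passed" at an adjusted p under 0.05 and was "called" when its log2 change was also at least 1 in size, the rule of the study. Levels are not compared between genes because transcript lengths were not used here. Where all values of a group lie above or below those at Baseline, the share of all genes with such a separation is not given. Those statements therefore describe the values alone. In bulk tissue, fewer hepatocytes and less RNA per hepatocyte cannot be told apart.

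In FS animals the counts at 2 hours were close to the shares of all genes, and 7 of the 8 passed lower at 20 hours. At FR2vB, 1 of the 8 genes was called, ARG1, which rose, against 11% of all genes called, and OTC and GLS2 passed lower, against 21.1% of all genes. At FR8vB, OTC and TDO2 were called lower, where 11.8% of all genes were called, and GLS2 also passed lower, where 19.5% of all genes did. At FR20vB the call covered OTC alone (9.94% of all genes), while 7 of 8 passed lower against 16.4% of all genes, CPS1 being the exception. With library totals in place of TMM scaling, ARG1, GLS2 and HPD no longer passed there. The median log2 change of the 8 genes was -0.16, -0.53 and -0.85 at FR2, FR8 and FR20, against -0.04, 0.00 and 0.04 over all genes tested.

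In CPF animals none of the 8 was called at FR2vB by edgeR, where 2.41% of all genes were. ARG1 and GLS2 had an unadjusted p under 0.05, as did 2735 of the 13667 genes tested. At FR8vB GLS2 was called lower (8.83% of all genes called), and ASL and HPD passed lower as well (6.99% of all genes). At FR20vB none was called, where 0.702% of all genes were, and all 8 estimates lay below 0. Of the 8 genes, 0 had an unadjusted p under 0.05 there, against 2249 of the 13667 genes tested. DESeq2 also called none of the 8 at FR2vB or FR20vB. The medians over the 8 genes were -0.03, -0.93 and -0.47, against -0.02, 0.04 and 0.05 over all genes.

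In the 74 libraries more of the 8 genes were called at each change from Baseline but FR2 in FS. The share of all genes called was higher as well, at every change from Baseline. In FS the genes called were ARG1 at FR2 (15.2% of all genes called), OTC, GLS2 and TDO2 at FR8 (18.8%), and OTC, ASS1 and ARG1 at FR20 (13.1%). In CPF they were ARG1 at FR2 (6.13%), OTC and GLS2 at FR8 (13.3%), and OTC at FR20 (8.30%). No gene changed direction among these between the 88 and the 74 libraries.

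**Figure D1:**
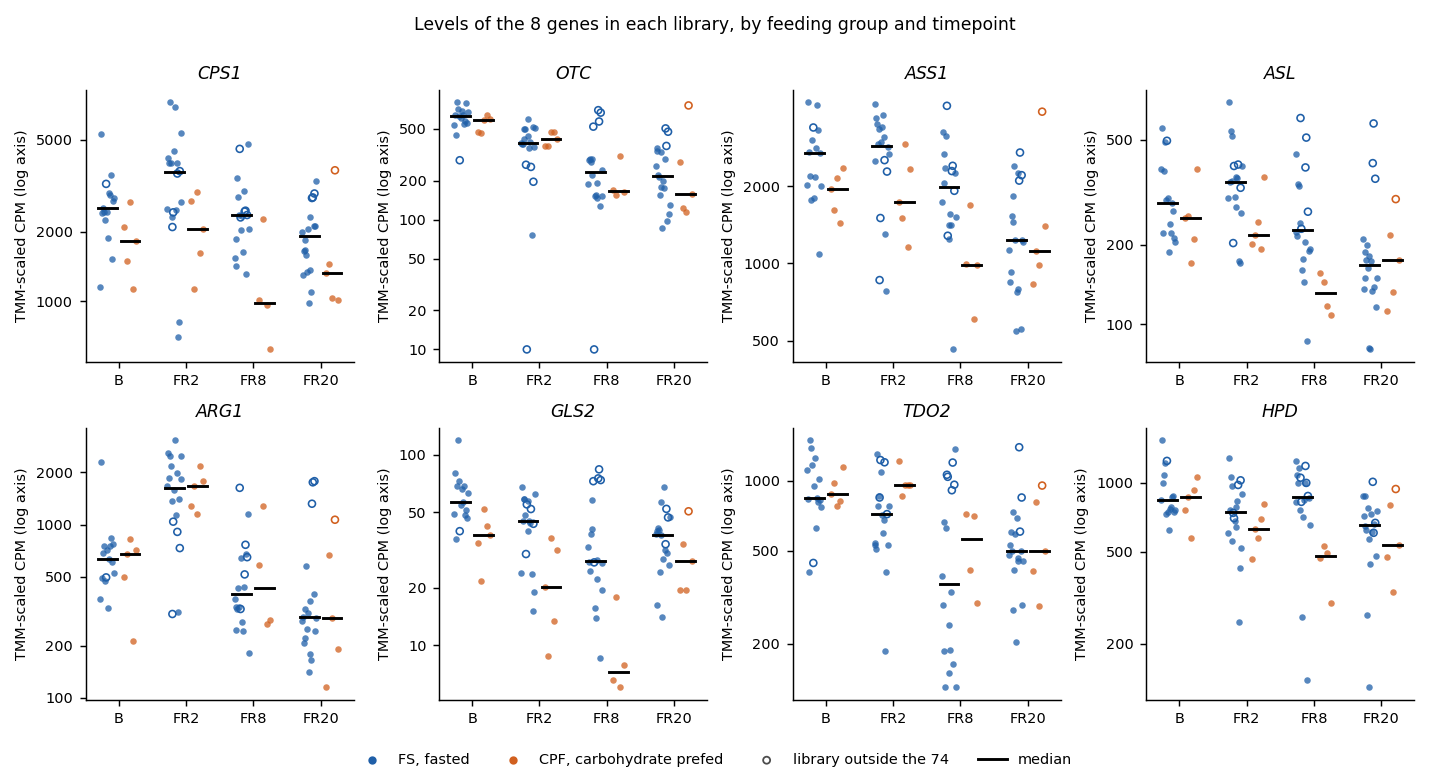
Level of the 8 genes in every library (TMM-scaled CPM, log axis) at B, FR2, FR8 and FR20 in FS and CPF animals; hollow points are libraries outside the 74, and OTC values of 0, which a log axis cannot show, are drawn at 10 CPM. OTC drops from an FS median of 634 CPM at Baseline to 216 at FR20, while ARG1 peaks at FR2 with a median of 1631.

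CPS1 is the entry point of the cycle and is usually regarded as its rate-limiting enzyme. In FS livers its level ran from 1152 to 5275 CPM at Baseline with a median of 2528, from 699 to 7230 with a median of 3607 at FR2, from 1313 to 4794 with a median of 2349 at FR8, and from 986 to 3294 with a median of 1917 at FR20. The ranges overlapped at every timepoint, and the spread was widest at FR2. Its log2 change from Baseline was 0.35 (SE 0.22, adjusted p = 0.19) at FR2, -0.11 (0.22, 0.72) at FR8 and -0.39 (0.22, 0.16) at FR20, so no change passed the test, although it was lower at FR20 in 12 of 15 FS animals. The FR2 value over the 74 libraries, 0.55 (SE 0.20), passed with an adjusted p of 0.02.

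In CPF animals 3, 7, 8, 13 and 18, the order used for CPF values throughout, CPS1 was at 2082, 1497, 2687, 1127 and 1818 CPM at Baseline and at 2716, 1125, 2973, 1607 and 2042 CPM at FR2. At FR8, where animal 3 has no usable library, it was at 1008, 2258, 964 and 618 CPM in the other 4, below each animal's own Baseline. At FR20 it was at 1318, 1447, 1032, 3680 and 1013 CPM, and the high value belonged to the library of animal 13 that is outside the 74. No CPF change of CPS1 passed, the largest being -0.67 (SE 0.42, adjusted p = 0.30) at FR8.

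OTC is X-linked, and its loss is the most common inherited cause of urea cycle failure. In FS animals it stood at 287 to 800 CPM at Baseline (median 634) and, without FS animal 11, at 76.1 to 597 CPM (median 393) at FR2 and 128 to 698 CPM (median 241) at FR8. At FR20 the range was 85.6 to 505 CPM with a median of 216. OTC was lower than Baseline in 15 of 15 FS animals at FR2, FS animal 11 included, and in 14 of 15 at both FR8 and FR20. In the 86 libraries the later ranges overlapped that of Baseline, with 11 of 17 FR8 and 11 of 18 FR20 libraries under its lowest value, 287 CPM. In the 74 libraries 13 of 13 FR8 libraries (128 to 295 CPM) and 15 of 15 FR20 libraries (85.6 to 357 CPM) lay under the lowest Baseline value, 448 CPM. The 74 were chosen by how their profiles matched the timepoints, which favours such a separation, so it is not support for the change.

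The log2 change of OTC in FS was -0.92 (SE 0.38, adjusted p = 0.043) at FR2, -1.50 (0.40, 0.0019) at FR8 and -1.57 (0.39, 0.0011) at FR20, a level 2.84-fold and 2.96-fold lower at the last 2 timepoints. Without the 2 libraries that listed it at 0, the changes were -0.72 (adjusted p = 0.0082), -1.30 (2.6e-05) and -1.53 (7.2e-07). The FR2 change was no longer past the threshold when any of 10 of the 18 FS animals was left out, with an adjusted p of 0.0525 to 0.061. These animals were 1, 2, 5, 6, 14, 15, 16, 17, 19 and 21. Both later changes held without any single animal.

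In CPF animals OTC was at 477, 466, 589, 639 and 592 CPM at Baseline and at 370, 372, 471, 470 and 420 CPM at FR2. At FR8 it was at 168, 156, 308 and 164 CPM, below every Baseline value. At FR20 it was at 280, 124, 114, 759 and 159 CPM, the exception being animal 13 again. The direction was the same in 5 of 5 animals at FR2 and in 4 of 4 at FR8, but in the 88 libraries the log2 change of -1.57 at FR8 (SE 0.75) had an adjusted p of 0.15 and that of -1.23 at FR20 (SE 0.70) had 0.38. In the 86 libraries the FR8 change was -1.57 with an adjusted p of 0.014. Over the 74 it was -1.51 (SE 0.28, adjusted p = 5.4e-05) at FR8 and -1.67 (SE 0.28, adjusted p = 2.4e-05) at FR20.

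ASS1 joins citrulline and aspartate and brings the second nitrogen into the cycle. Its FS level was 1088 to 4241 CPM at Baseline (median 2690), 778 to 4197 at FR2 (median 2878), 462 to 4116 at FR8 (median 1987) and 544 to 2706 at FR20 (median 1235). Of its changes from Baseline only that at FR20 passed, and the step from FR8 to FR20 did not pass. The estimate at FR2 was within 0.38 of 0 on the log2 scale at either end of its 95% interval. The change at FR8 was -0.45 (SE 0.20, adjusted p = 0.058), and that at FR20 was -0.96 (SE 0.20, adjusted p = 0.00016). At FR20 it was lower in 15 of 15 animals.

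ASL, which cleaves argininosuccinate into arginine and fumarate, also passed against Baseline in FS at FR20 alone. In FS it was at 187 to 555 CPM at Baseline (median 288), 170 to 693 at FR2 (median 347), 86.2 to 605 at FR8 (median 227) and 80.2 to 577 at FR20 (median 168). The log2 change was 0.11 (SE 0.17, adjusted p = 0.62), -0.39 (0.17, 0.062) and -0.84 (0.18, 0.00015). ASL was lower than Baseline in 14 of 15 FS animals at FR8 and in 15 of 15 at FR20. For both genes the FR20 change held without any single FS animal.

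In CPF animals ASS1 was at 1958, 1610, 2159, 1443 and 2357 CPM at Baseline, 1729, 1506, 2918, 1156 and 2339 at FR2, 991, 1691, 606 and 982 at FR8, and 828, 1118, 985, 3905 and 1394 at FR20. It was lower at FR8 in 4 of 4, with a log2 change of -0.93 (SE 0.39) that did not pass (adjusted p = 0.096). ASL was at 252, 257, 171, 210 and 386 CPM at Baseline, 202, 217, 243, 193 and 361 at FR2, 156, 145, 117 and 108 at FR8, and 112, 218, 132, 298 and 175 at FR20. All FR8 values of ASL lay under the lowest Baseline value. Its FR8 change of -0.98 (SE 0.34) passed with an adjusted p of 0.044, and this was lost without CPF animal 3, 7, 13 or 18 (adjusted p 0.076 to 0.25).

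ARG1 splits arginine into ornithine and urea. FS animals held 331 to 2308 CPM at Baseline (median 631), 305 to 3058 at FR2 (median 1631), 181 to 1630 at FR8 (median 400) and 142 to 1781 at FR20 (median 292). It rose at FR2 in 14 of 15 FS animals, by 1.21 on the log2 scale (SE 0.34, adjusted p = 0.0029), and this held without any single animal. At FR8 its change was -0.60 (SE 0.34, adjusted p = 0.15) and at FR20 it was -0.87 (SE 0.35, adjusted p = 0.0495). The FR20 change was lost without any of 13 FS animals (1, 2, 4, 5, 6, 11, 12, 14, 15, 16, 20, 22 and 23, adjusted p 0.058 to 0.14), while in the 74 libraries it was -1.25 with an adjusted p of 3e-05.

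In CPF animals ARG1 went from 498, 679, 822, 212 and 710 CPM at Baseline to 1283, 1678, 1144, 2168 and 1775 CPM at FR2, so that all 5 FR2 values lay above all 5 Baseline values. It was at 585, 1280, 266 and 282 CPM at FR8 and at 115, 668, 289, 1067 and 192 CPM at FR20. The FR2 change was 1.46 (SE 0.60, adjusted p = 0.16) in the 88 libraries and 1.63 (SE 0.42, adjusted p = 0.0057) in the 74. At FR8 2 animals were higher and 2 lower than Baseline, with a log2 change of -0.26 (95% interval -1.55 to 1.02).

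A second identifier carries the name ARG1 in the tables of the study. It was lower in counts, with an FS median of 32.8 CPM at Baseline, 75.7 at FR2, 20.0 at FR8 and 11.5 at FR20. Its FS changes had the signs of those of ARG1, at 0.88 (adjusted p = 0.045), -0.92 (0.0459) and -1.30 (0.0076), so only the FR20 change was called. Reads shared between the 2 identifiers were not examined, and both are therefore uncertain as separate genes. Summing their counts moved none of the changes of ARG1 across the threshold.

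**Figure D2:**
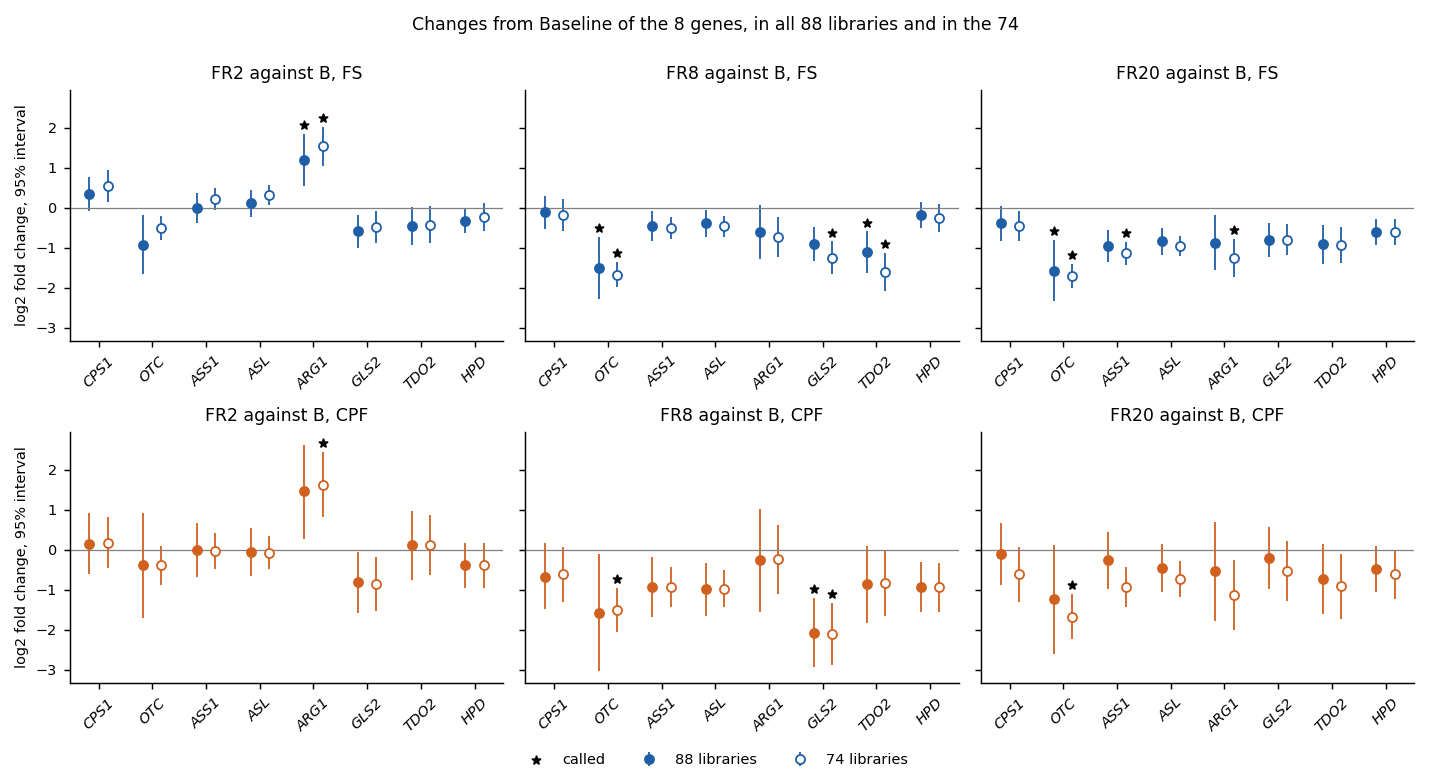
Log2 fold change from Baseline of each gene at FR2, FR8 and FR20 in FS and CPF, with 95% intervals; filled points are the 88 libraries, hollow points the 74, and stars mark called changes. ARG1 stands above 0 at FR2 in both groups, at 1.21 in FS and 1.46 in CPF, and the lowest point of the 88 libraries is GLS2 in CPF at FR8, at -2.07.

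GLS2, the liver-type glutaminase, frees ammonia from glutamine in the mitochondrion and so feeds CPS1. Its FS level was 36.2 to 119 CPM at Baseline (median 56.3), 15.1 to 67.8 at FR2 (median 44.8), 8.59 to 83.9 at FR8 (median 27.8) and 14 to 68.1 at FR20 (median 38.0). It fell in FS at all 3 timepoints, by 0.59 (SE 0.21, adjusted p = 0.02), 0.90 (0.22, 0.00087) and 0.81 (0.21, 0.0023) on the log2 scale. It was lower than Baseline in 13, 14 and 13 of 15 animals.

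In CPF animals GLS2 was at 34.5, 21.6, 51.8, 42.2 and 37.7 CPM at Baseline and 20.3, 8.75, 36.6, 13.4 and 31.8 CPM at FR2. At FR8 it was at 6.57, 18, 5.99 and 7.81 CPM, all under the lowest Baseline value, and at FR20 at 19.5, 34.0, 19.4, 50.5 and 27.6 CPM. The FR8 change of -2.07 (SE 0.44, adjusted p = 0.003), a 4.2-fold lower level, was the only change of the 8 genes called in CPF in the 88 libraries, and it held without any single CPF animal (-2.34 to -1.86). The change was -0.81 (SE 0.39, adjusted p = 0.23) at FR2 and -0.20 (SE 0.39, adjusted p = 0.84) at FR20.

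TDO2 opens the tryptophan ring on the way to kynurenine and is a classic glucocorticoid-responsive liver enzyme. In FS it was at 405 to 1487 CPM at Baseline (median 845), 186 to 1302 at FR2 (median 717), 130 to 1371 at FR8 (median 361) and 204 to 1391 at FR20 (median 501). Its change was -0.46 (SE 0.25, adjusted p = 0.13) at FR2. At FR8 it fell by 1.10 (SE 0.26, adjusted p = 0.00059), lower in 12 of 15 animals, and at FR20 it fell by 0.91 (SE 0.25, adjusted p = 0.0035), lower in 13 of 15. Both changes passed without any single animal, and the FR8 change stood at -0.97 without FS animal 6 and at a size of under 1 without FS animal 12, where it was not called.

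HPD, 4-hydroxyphenylpyruvate dioxygenase, carries out the second step of tyrosine breakdown. Its FS level was 625 to 1522 CPM at Baseline (median 838), 249 to 1282 at FR2 (median 748), 139 to 1239 at FR8 (median 866) and 129 to 1007 at FR20 (median 655). Only at FR20 did it pass, falling by 0.60 (SE 0.16, adjusted p = 0.0029) in 14 of 15 animals. The values at FR2 and FR8 were -0.32 (SE 0.16, adjusted p = 0.11) and -0.18 (SE 0.16, adjusted p = 0.40).

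In CPF animals TDO2 was at 878, 975, 778, 820 and 1139 CPM at Baseline, 1213, 861, 955, 961 and 954 at FR2, 723, 416, 709 and 298 at FR8, and 412, 810, 289, 953 and 500 at FR20. HPD was at 760, 861, 574, 926 and 1053 CPM at Baseline, 466, 628, 577, 695 and 810 at FR2, 469, 531, 495 and 301 at FR8, and 476, 797, 335, 937 and 538 at FR20. All FR8 values of either gene lay under its lowest Baseline value. HPD passed at FR8 (-0.93, SE 0.32, adjusted p = 0.043), which was lost without CPF animal 3, 7, 13 or 18 (adjusted p 0.073 to 0.26), and TDO2 did not (-0.86, SE 0.49, adjusted p = 0.24).

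The tests were also run with the 3 low-albumin Baseline libraries kept. These held high striated muscle markers and went against their liver label, so this fit cannot decide whether the liver changes hold. With them included, 17 of the 19 changes past the threshold were lost, and only the ARG1 changes at FR2vB (1.5, adjusted p = 0.0051) and FR8vFR2 (-1.74, adjusted p = 0.003) held. In FS, OTC then changed by -1.04 at FR8 (adjusted p = 0.19) and -1.16 at FR20 (0.14), and TDO2 by -0.66 at FR8 (0.34). GLS2 in CPF, where no library was added, kept its FR8 change of -2.07, with an adjusted p of 0.13.

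After FR2, ARG1 from FR2 to FR8 in FS was the 1 step of the 8 genes between successive timepoints that edgeR called in the 88 libraries. It fell by 1.81 (SE 0.33, adjusted p = 6.6e-05), 3.5-fold, in 16 of 18 animals. At that step 5.96% of all genes were called, and ASL (-0.50, SE 0.16, adjusted p = 0.015) and TDO2 (-0.64, SE 0.24, adjusted p = 0.041) passed lower with it, against 13.9% of all genes. The TDO2 step was lost without any of 12 FS animals (1, 2, 4, 5, 6, 9, 12, 14, 15, 16, 20 and 23, adjusted p 0.0533 to 0.11). Over the 74 libraries OTC (-1.16), ARG1 (-2.27) and TDO2 (-1.18) were called (15.6% of all genes) and 7 of the 8 passed lower, all but HPD. In that set 6714 of the 13489 genes tested passed at this step, in either direction.

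In CPF no FR8vFR2 step was called by edgeR (4.92% of all genes called). ARG1 stood at -1.72 (SE 0.69, adjusted p = 0.097), GLS2 at -1.26 (SE 0.44, adjusted p = 0.059) and OTC at -1.19 (SE 0.74, adjusted p = 0.30). In edgeR 4 of the 8 genes had an unadjusted p under 0.05, as did 3632 of the 13667 genes tested. DESeq2 called 2 of the 8, ARG1 (adjusted p = 0.039) and GLS2 (0.029). Over all 16 alternatives the adjusted p ran from 0.0026 to 0.29 for ARG1 and from 0.014 to 0.39 for GLS2. With the 74 libraries OTC, ARG1 and GLS2 were called lower (11.5% of all genes).

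From FR8 to FR20 none of the 8 was called in FS by edgeR (1.46% of all genes) or DESeq2. In edgeR ASS1, ASL and HPD had an unadjusted p under 0.05, as did 2962 of the 13667 genes tested, and the lowest adjusted p of the 8 was 0.083. TDO2 rose over this step in the 74 libraries, by 0.66 (SE 0.24, adjusted p = 0.04), while ASS1 (-0.64) and ASL (-0.49) fell further. In CPF, GLS2 was higher at FR20 than at FR8 in 4 of 4 animals, by 1.86 (SE 0.44), with an unadjusted p of 8.4e-05 and an adjusted p of 0.16. None of the 8 was called by edgeR in CPF at this step, where 0.0220% of all genes were. DESeq2 called GLS2 alone (1.88, adjusted p = 0.01), and its adjusted p ran up to 0.66 over the 16 alternatives.

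The study asked whether feeding before shock alters the liver response. No gene of the whole table was called for a difference between the CPF and FS changes, 0.00% at each of FR2, FR8 and FR20. In edgeR 397, 468 and 521 of the 13667 genes tested had an unadjusted p under 0.05, each a smaller share than the 0.05 expected with no difference. DESeq2 called 0, 2 and 2 genes, none of the 8. GLS2 had the lowest unadjusted p of the 8 at FR8: its CPF change was lower than its FS change by 1.17 on the log2 scale (95% interval 0.22 to 2.12 lower), with an unadjusted p of 0.018 and an adjusted p of 1.00. For HPD the difference at FR8 was -0.75 (-1.45 to -0.05), also with an adjusted p of 1.00. For OTC it was -0.07 (-1.68 to 1.55) in the 88 and 0.16 (-0.44 to 0.77) in the 74 libraries, so a difference in either direction of less than those bounds was not detectable.

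Compared at each timepoint, 3 genes were called between CPF and FS at Baseline, none of the 8 (0.0257%), and 0.00% of genes at FR2, FR8 and FR20. In edgeR 895, 664, 618 and 400 genes had an unadjusted p under 0.05, of 11688, 11892, 11951 and 12307 tested. DESeq2 called 31, 0, 7 and 2 genes, GLS2 among them at FR8 (-2.01, SE 0.47, adjusted p = 0.039), which was the 1 of 32 alternatives that called it there (adjusted p 0.039 to 1.00). The GLS2 level was lower in CPF than in FS by 0.70 (95% interval 0.25 to 1.15, adjusted p = 0.37) at Baseline, by 0.98 (0.34 to 1.62, adjusted p = 0.82) at FR2 and by 2.0 (0.94 to 3.06, adjusted p = 0.76) at FR8. At FR20 the difference was -0.31 (-0.85 to 0.23). In the 74 libraries the FR8 difference was -1.5 (-2.29 to -0.71, adjusted p = 0.53).

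A further 3 genes of the cycle had FR8 intervals that lay below 0 in CPF against FS. They were CPS1 at -1.04 (-1.72 to -0.36), ASS1 at -0.95 (-1.69 to -0.21) and ASL at -1.07 (-1.81 to -0.33), and HPD stood at -0.94 (-1.65 to -0.22). Their adjusted p ran from 0.86 to 0.95, so none passed. OTC, at -0.55 (-2.02 to 0.92), ARG1, at 0.18 (-0.73 to 1.10), and TDO2, at -0.07 (-1.21 to 1.08), had intervals on both sides of 0, and the 4 CPF libraries at FR8 leave wide intervals throughout.

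**Figure D3:**
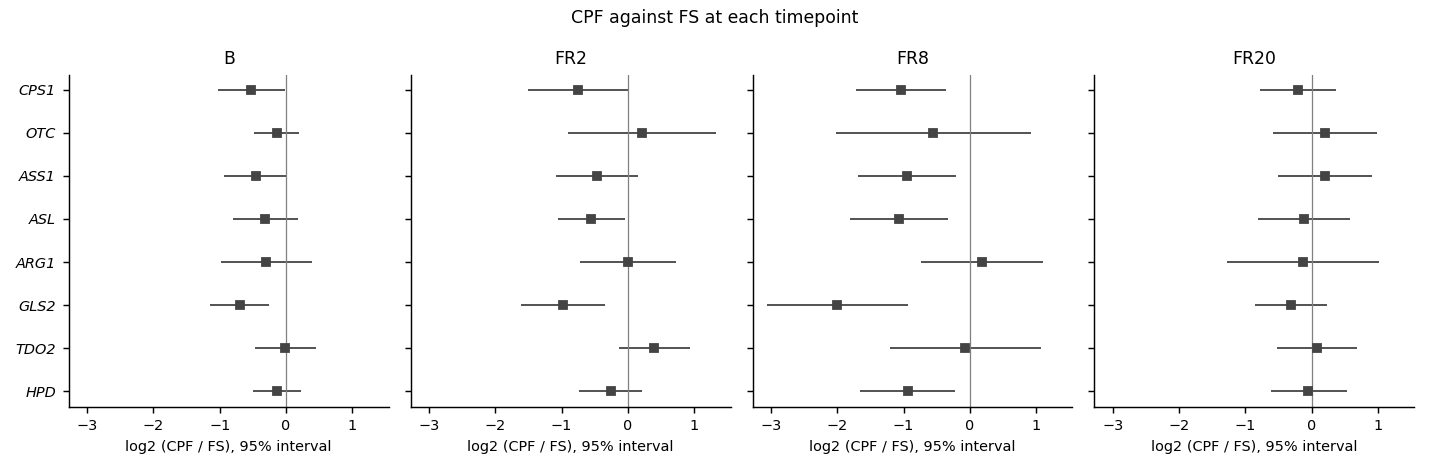
Level difference of each gene between CPF and FS (log2 scale, values below 0 lower in CPF) with 95% intervals at the 4 timepoints. GLS2 lies furthest below 0 at FR8, at -2.0, and no difference passed the adjusted test.

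No gene of the table was called between animals labelled as having died and those that lived by edgeR with a term for feeding (0.00% at each timepoint). An unadjusted p under 0.05 was found for 998, 656, 265 and 642 genes, of 11688, 11892, 11951 and 12307 tested. DESeq2 called 10, 3, 0 and 0 genes, none of the 8. The widest departures among the 8 were ARG1 at Baseline, higher in animals that died by 0.98 (95% interval 0.46 to 1.5, adjusted p = 0.33), and ASS1 at FR20, with a difference of -1.07 (-1.75 to -0.38, adjusted p = 0.85). The 74 libraries gave 0.97 and -0.65.

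The other genes of amino acid breakdown were read from 12 lists of 118 symbols, of which 89 were tested. In FS, 11 rose and 37 fell past the test at FR2, where 20.3% of all genes passed higher and 21.1% lower. At FR8 10 rose and 48 fell, against 19.9% and 19.5% of all genes, and at FR20 8 rose and 37 fell, against 17.4% and 16.4%. Their median log2 change was -0.34, -0.53 and -0.40, against -0.04, 0.00 and 0.04 over all genes. A few genes, such as TAT, stand in more than 1 list. In CPF, 4 rose and 32 fell at FR8 with a median of -0.84, against 6.31% of all genes passing higher and 6.99% lower. At FR2 in CPF 1 list gene was called lower and none higher (2.41% of all genes called), and at FR20 1 was called higher and 2 lower (0.702%). The CPF counts depended on the libraries: over the 74, 3 were called higher and 2 lower at FR2 (6.13% of all genes), and 2 higher and 18 lower at FR20 (8.30%). In FS at FR8 the 74 libraries gave 6 called higher and 34 lower (18.8%).

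**Figure D4:**
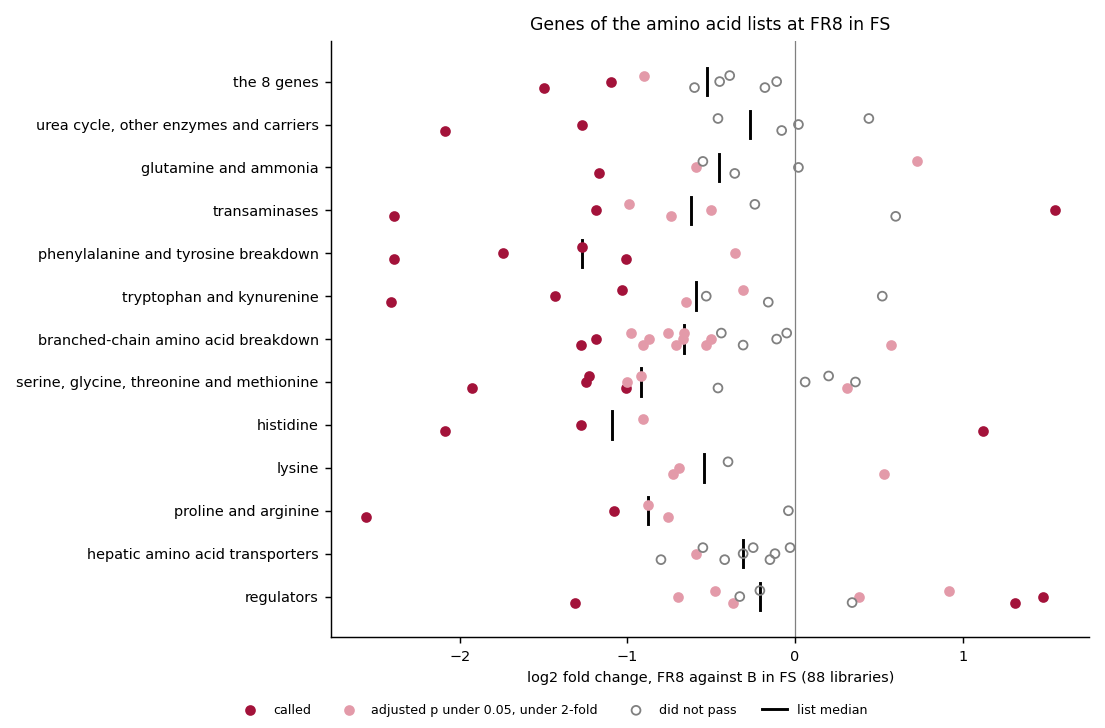
Log2 fold change at FR8vB in FS of each tested gene in the 12 amino acid lists, with a bar at the median of each list. The medians run from -1.27 for phenylalanine and tyrosine breakdown to -0.21 for the regulators, below the all-gene median of 0.00.

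Around the cycle itself, 6 other enzymes and carriers were tested, and at FR8 in FS 2 were called lower and none higher, with a median of -0.27, where 11.8% of all genes were called. The counts of each list that follow are for FR8vB in FS, to be read against the 19.5% of all genes that passed lower and the 19.9% that passed higher. NAGS, which makes the activator of CPS1, was the highest of them at FR8 (0.44, SE 0.24, adjusted p = 0.14), and it had risen at FR2 by 1.53 (SE 0.25, adjusted p = 1.6e-06) from an FS median of 103 to 316 CPM. ARG2, the mitochondrial arginase, fell at FR8 by 2.09 (SE 0.50, adjusted p = 0.00068), from a median of 87.7 CPM at Baseline to 10.9, and was at -0.66 (adjusted p = 0.24) at FR20. At FR2, when NAGS and ARG1 were higher, ARG2 stood at 0.30 (adjusted p = 0.60).

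Glutamine and ammonia genes, 6 tested, held 1 that passed higher and 2 lower at FR8 in FS, with a median of -0.45. GLUL, the glutamine synthetase of the hepatocytes around the central vein, fell at FR8 by 1.17 in FS (SE 0.45, adjusted p = 0.031) and by 2.41 in CPF (SE 0.86, adjusted p = 0.0485). It too was listed at 0 in both libraries of FS animal 11, and without these and the 12 libraries its FR8 changes were -1.42 and -2.42. SLC1A5, a glutamine transporter, rose in FS at FR2 (1.04, SE 0.24, adjusted p = 0.00034) and passed higher at FR8 (0.73) and FR20 (0.89).

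In tyrosine and phenylalanine breakdown the 5 genes tested beside HPD passed lower in FS at FR8, with a median of -1.27, against 19.5% of all genes. TAT, the aminotransferase that comes just before HPD, fell by 2.39 (SE 0.51, adjusted p = 0.00017), from a median of 3384 CPM at Baseline to 341, and FAH, the last enzyme of the path, fell by 0.36 (SE 0.11, adjusted p = 0.005). HPD, between them, stood at -0.18 and did not pass. In the tryptophan list 5 of 8 passed lower at FR8 and none higher, with a median of -0.59. KMO, which acts on the kynurenine that TDO2 gives rise to, fell by 2.41 (SE 0.36, adjusted p = 1e-06) in FS and by 3.0 (SE 0.70, adjusted p = 0.0042) in CPF. IDO1, the interferon-induced enzyme for the same step as TDO2, rose at FR2 by 2.09 (SE 0.53, adjusted p = 0.0011) and stood at 0.52 (adjusted p = 0.48) at FR8. Its counts were near the floor, with an FS median of 0.172 CPM at Baseline and 0.807 CPM at FR2.

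Of 16 branched-chain amino acid genes, 11 passed lower and 1 higher in FS at FR8, with a median of -0.67, where 19.5% of all genes passed lower. The higher was BCKDK, the kinase that switches the branched-chain dehydrogenase off (0.57, SE 0.09, adjusted p = 2.4e-06), and the lowest was HIBADH of valine breakdown (-1.28, SE 0.23, adjusted p = 9.8e-06). Among 8 transaminases, 5 passed lower and 1 higher, BCAT1, the branched-chain transaminase usually scarce in liver, which rose by 1.55 (SE 0.36, adjusted p = 0.00046) at FR8 and 2.39 (SE 0.36, adjusted p = 6.6e-07) at FR20.

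In histidine breakdown the first 2 steps parted. HAL, the histidine ammonia lyase, rose by 1.12 (SE 0.32, adjusted p = 0.0036) at FR8, while UROC1, the next enzyme, fell by 2.09 (SE 0.32, adjusted p = 1.2e-06), and in CPF they stood at 1.76 (adjusted p = 0.04) and -3.0 (adjusted p = 0.0019). The other 2 genes of the list passed lower in FS. SARDH, of glycine metabolism, fell by 1.93 (SE 0.27, adjusted p = 3.9e-07) among 11 serine, glycine, threonine and methionine genes, of which 6 passed lower and 1 higher, and GLDC stood highest among them at 0.36 (adjusted p = 0.41). GATM, which uses arginine for creatine synthesis, had the lowest FR8 value of the proline and arginine list, -2.56 (SE 0.36, adjusted p = 3.9e-07), and went from a median of 1789 CPM at Baseline to 225 at FR8. In that list 4 of 5 genes passed lower and none higher.

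Of 4 lysine genes 2 passed lower at FR8 and 1 higher. The lowest was AASS (-0.73, SE 0.27, adjusted p = 0.027), and the higher was HYKK (0.53, SE 0.20, adjusted p = 0.029). The 9 amino acid transporters showed 1 that passed lower at FR8 and none higher, a smaller share than the 19.5% of all genes that passed lower. SLC7A1, a carrier of arginine, rose at FR2 (1.23, SE 0.34, adjusted p = 0.0025) and stood at -0.80 (adjusted p = 0.061) at FR8, and SLC6A13 was at -0.03 (adjusted p = 0.96). Among 11 regulators 4 passed higher and 4 lower. CEBPA, a liver transcription factor known to act on urea cycle genes, rose by 1.48 (SE 0.25, adjusted p = 6.1e-06), and FOXO1, a factor restrained by insulin, fell by 1.31 (SE 0.22, adjusted p = 3.9e-06) in FS and by 1.96 (SE 0.43, adjusted p = 0.0033) in CPF. FOXO1 was also the 1 list gene called in CPF at FR2 (-1.74, SE 0.39, adjusted p = 0.0083).

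No list gene was called for feeding or survival in the 88 libraries. In the 74 libraries GLUL alone was called, higher in CPF than in FS at Baseline by 1.5 (adjusted p = 0.0489), and in the 88 it stood at 1.57 (adjusted p = 0.073).

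The 8 genes were more alike in some pairs than in others. Over the 88 libraries, which share animals and timepoints, their 28 pairs had a Pearson r of log2 CPM from 0.15 to 0.77 with a median of 0.48, and from 0.19 to 0.78 with a median of 0.56 over the 74. The genes most like CPS1 were CTH (r = 0.86), AASS (0.81) and ASS1 (0.71), and those most like ASS1 included GOT1 (0.78) and CTH (0.77). Among the genes closest to ASL were MAP1LC3B (0.78) and ASS1 (0.77). ARG1 had other neighbours, PPAT (0.88), DDX56 (0.86) and CALM2 (0.86).

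OTC was closest to HSD17B10 (0.98), PON1 (0.97) and SERPINC1 (0.97), all 3 listed at 0 in the same 2 libraries of FS animal 11, and in the 74 libraries these values were 0.90, 0.89 and 0.92. GLS2 was closest to SYCE2 (0.74), SDHB (0.74) and TTC38 (0.73), TDO2 to GSTZ1 (0.77), SLC15A2 (0.76) and PBLD (0.75), and HPD to MMUT (0.75), FAH (0.71) and ASL (0.69). These values describe the 88 libraries and carry no test.

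Hepatocyte markers were lower at the later timepoints as well. The summed level of the 8 of 9 hepatocyte markers found, in CPM of the library total, ran from 108968 to 219211 at Baseline in FS (median 194362), 79090 to 166822 at FR2 (median 149726), 79967 to 191684 at FR8 (median 103619) and 46200 to 155916 at FR20 (median 76313). In CPF it ran from 163320 to 214393 (median 194682), 133239 to 190431 (median 147599), 101796 to 141451 (median 110796) and 56527 to 236033 CPM (median 70970). None of these markers was at 0 in over 44 of the 88 libraries. Albumin alone had an FS median of 120756 CPM at Baseline and 33634 CPM at FR20. The part of the hepatocyte markers in the lower OTC, ASS1, ASL, GLS2, TDO2 and HPD levels was not tested.

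Neutrophil markers (6 of 7 found) had an FS median of 1.15 CPM at Baseline, with a range of 0 to 16.3. The FS medians at FR2, FR8 and FR20 were 14.9, 7.32 and 6.53 CPM, over ranges of 3.7 to 73.0, of 0.397 to 33.6 and of 1.49 to 45.6, with CSF3R at 0 in all 88 libraries. Endothelial markers (4 of 7) had FS medians of 168, 200, 209 and 235 CPM and macrophage markers (4 of 7) of 391, 333, 314 and 382. Stellate and smooth muscle markers (6 of 7, MYH11 at 0 in all 88) were at 649, 422, 486 and 832 CPM. T and NK cell markers (5 of 6) stayed at medians of 23.1 to 25.2 CPM and cholangiocyte markers (3 of 6) at 18.1 to 26.6. Erythroid markers (3 of 6) were at 228, 241, 125 and 145 CPM and the 1 of 4 adipocyte markers found at 1.6, 0.384, 1.66 and 5.97. Striated muscle markers (7 of 13, with MYH2, TNNC2 and MYOT at 0 in over 44 libraries) were at 7.72 to 126 CPM in the 88 libraries. In CPF at FR8, where GLS2 was called lower, the endothelial median was 303 CPM (278 to 443) against 162 (97.5 to 227) at Baseline, with no overlap, and the neutrophil median was 11.9 (4.25 to 49.7) against 0.758 (0.188 to 3.82). The erythroid median was 59.8 against 154 CPM, the macrophage median 284 against 366, and the stellate and smooth muscle median 656 against 575. T and NK cell, cholangiocyte, adipocyte and striated muscle medians were 20.1 against 24.8, 26.8 against 22, 0.725 against 1.09 and 12.5 against 17.1 CPM. The part of these cells in the changes was not tested.

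**Figure D5:**
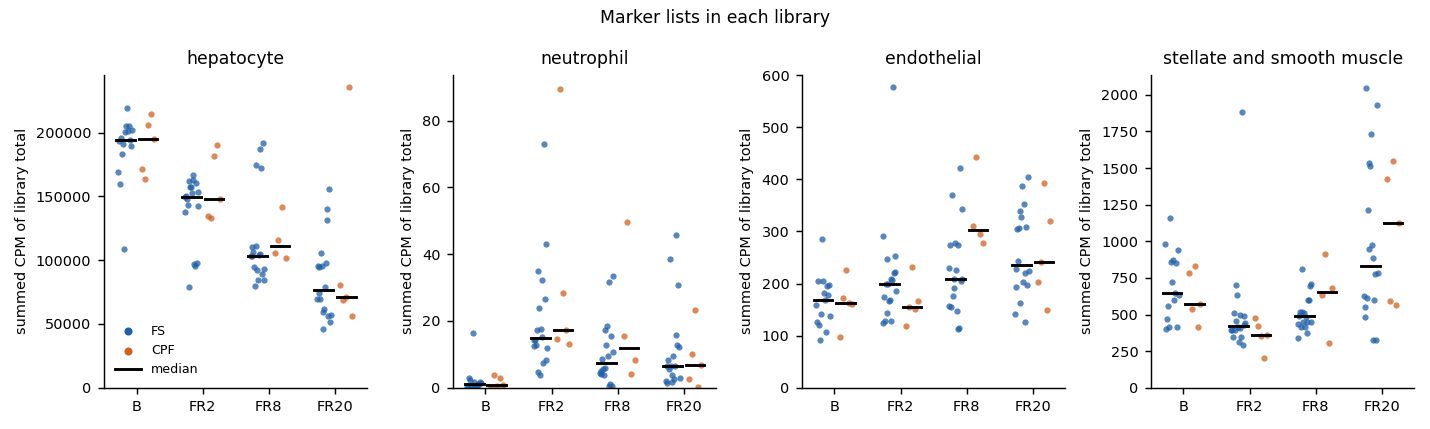
Summed level of cell type marker lists in each library (CPM of the library total, linear axis) by group and timepoint, with medians. The FS median of the hepatocyte sum is 194362 at Baseline and 76313 at FR20, and that of the neutrophil sum is 1.15 at Baseline and 14.9 at FR2.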

How the data were processed

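The authors prepared oligo-dT TruSeq libraries, sequenced single reads on an Illumina HiSeq, demultiplexed with CASAVA 1.8.2, aligned with TopHat 1.5.0 to Sscrofa10.2 and counted reads per Ensembl gene with HTSeq. The deposited table holds raw counts for 25322 identifiers. The counting mode and strand setting are not given in the sources used here, and near-identical copies are uncertain. All 92 columns were matched to samples by title, and groups came from the fed status, survival and timepoint labels. Symbols came from a gene name table (11804) and, for 700 identifiers, the study's own tables. The 8 genes, the 12 pathway lists and the marker lists were chosen with earlier results of these data known.

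Counts were tested with edgeR 4.0.16 (R 4.3.3): TMM scaling, genes with a summed CPM of at least 10 kept, the quasi-likelihood F test, 2-sided, with Benjamini-Hochberg adjustment over all genes. Changes over time were fitted with a term for each animal and terms for FR2, FR8 and FR20 in FS and in CPF, and differences at 1 timepoint with the feeding group, plus survival where tested. Intervals are 95% intervals from the SE. The animal code in the titles pairs the libraries: deviations from the group means correlated with a median r of 0.205 over 126 pairs of libraries from the same animal, against -0.0235 over 2391 other pairs. From each pathway list the text names the tested genes with the highest and lowest change at FR8vB in FS, any called for feeding or survival, and for each of the 8 genes the 3 with the highest Pearson r.

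The scripts were tested on simulated counts. Alternatives were DESeq2 1.42.0, RLE scaling, other filters, no animal term, the left-out libraries kept, and each animal left out, and, chosen after seeing the data, library totals, the 86 and 74 libraries, and the 2 identifiers named ARG1 summed. Python 3.11.15, numpy 2.4.6, pandas 2.3.3 and matplotlib 3.10.9 were used. Promoter and protein sequences were not used here. Values of some genes of the lists are not reported here.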

Additional observations from a re-analysis of the deposited data

Results flagged for a closer look

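Among the 32 CPF groups of 4 or 5 libraries examined (8 genes at 4 timepoints, on the log2 scale), 2 held a library far from the others by Dixon's 95% limit, where chance marks about 1 group in 20. Both libraries came from CPF animal 13. CPS1 was at 3680 CPM in its FR20 library, against 1013 to 1447 CPM in the other 4 animals, with a gap of 0.72 of the range. This library is among the 12 whose profile followed another timepoint better than its label. OTC was at 308 CPM in the FR8 library of the same animal, against 156 to 168 CPM in the other 3, with a gap of 0.89 of the range.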

How the results depend on the processing

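Over 21 counts of the 8 genes called, 452 of 482 recomputed counts stayed within 1.5 times the reported count. The others were as follows. With the low-albumin Baseline libraries kept, and with all 92 libraries, 0 were called at FR8vB and FR20vB in FS and at FR8vB in CPF. With the 74 libraries, 3 were called at FR20vB in FS, 1 at FR2vB, 2 at FR8vB and 1 at FR20vB in CPF, 3 at FR8vFR2 in FS and 3 in CPF, and the 86 libraries gave 2 at FR8vB in CPF. With the adjusted p alone, 3 passed at FR2vB, 7 at FR20vB and 3 at FR8vFR2 in FS, and 3 at FR8vB in CPF. DESeq2 called 2 at FR8vFR2 and 1 at FR20vFR8 in CPF, and 1 for CPF against FS at FR8. Library totals in place of TMM gave 1 at FR8vB in FS. They moved the median of all genes to 0.15, 0.25 and 0.45 at FR2, FR8 and FR20 in FS and to -0.02, 0.32 and 0.42 in CPF, and 7 of 19 changes then lost the threshold. Among these were ARG1 (-0.46, adjusted p = 0.22), GLS2 (-0.38, 0.085) and HPD (-0.20, 0.23) at FR20 in FS. The 7 of 8 genes that passed lower there therefore depended on TMM scaling.

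The fit with no replicate block, that is no animal term, called 1 at FR8vB in FS and lost 7 of 19 changes: OTC (-0.74, adjusted p = 0.094) and GLS2 (-0.49, 0.08) at FR2vB, ARG1 at FR20vB (-0.50, 0.25), ASL (-0.37, 0.18) and TDO2 (-0.43, 0.21) at FR8vFR2, all in FS, and ASL (-0.96, 0.12) and HPD (-0.89, 0.094) at FR8vB in CPF. Leaving out each animal in turn gave 1 to 2 called at FR2vB, 1 to 3 at FR8vB and 1 to 2 at FR20vB in FS, and 1 to 3 at FR8vB in CPF. The 2 at FR2vB came without FS animal 12, the 1 at FR8vB without FS animal 6 or 12 and the 3 without FS animal 10, the 2 at FR20vB without FS animal 4, 6, 10 or 19, and the 3 in CPF without CPF animal 8. With no filter on low counts 3 changes were lost (OTC at FR2vB and ARG1 at FR20vB in FS, ASL at FR8vB in CPF, adjusted p 0.06, 0.064 and 0.0504), and DESeq2, RLE scaling, filterByExpr, the 86 and 74 libraries and the summed ARG1 counts lost none of the 19. Of 512 recomputed single changes, 418 kept their side of the threshold, 94 lost it and 0 changed direction. Differences between feeding groups in their change, and between animals that died and lived, were not refitted without each FS animal. Counts of 4 or 5 CPF libraries limit every CPF test, and a gene listed at 0 in 2 libraries limits OTC and GLUL.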
